A study of Mus musculus with 2 samples.

Results

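The 10 genes described here are expressed by the endothelial cells that line blood vessels, and several of them mark the blood-brain barrier. They are Mfsd2a, Slco1c1 and Abcb1a (barrier genes), Pecam1, Cdh5, Flt1 and Kdr (pan-endothelial genes, shared by endothelium of most organs), and Cldn5, Slco1a4 and Plvap. They were taken by name from the 19465 genes counted in both sections of the study. All 10 were found there and all 10 passed the filter on low counts, which left 19128 genes to test. Together they are the subject of 1 question, whether vessels inside and around a breast tumor growing in the cerebellum carry the transcripts of the barrier in the same proportion to general endothelial transcripts as vessels in the neural tissue.

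Endothelial cells of the brain are joined by tight junctions, take up nutrients through dedicated transporters, pump many drugs back into the blood and carry little material across themselves in vesicles. This specialised state is kept up by signals from the surrounding neural tissue, among them Wnt ligands, and by pericytes and the endfeet of astrocytes. Endothelium of most other organs lacks much of this transport program, and where it is fenestrated or rich in vesicles it makes Plvap, the protein of the diaphragms that span these openings.

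The data were Visium spatial counts of 2 sections of formalin-fixed cerebellum, each 5 µm thick and each from a different mouse, which are called section 1 (labelled HP-F1 +cre) and section 2 (labelled HP-B6 +cre). Both mice were 5 months old and untreated, and had received an injection of HP breast tumor organoids into the cerebellum. The paper describes the hosts as B6 mice and does not say what F1 in the label of section 1 denotes. A difference behind the labels cannot be told apart from other differences between the sections. HP denotes activating alleles of HER2 and PIK3CA. The HER2 allele is a human transgene under an actin promoter, switched on by Cre in the mammary gland of the donor mouse, and the organoids carried luciferase. No section without a tumor was part of the data, so each comparison is between regions of the same section, and both the tumor and the neural tissue beside it share the same host and injection.

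A Visium spot is a small area that can hold several cells of different types, so a level in a spot is not a level in endothelial cells. Section 1 held 3406 spots under tissue with 63986887 UMIs (unique molecules counted) in all, and section 2 held 4017 spots with 71878333 UMIs. Spots were assigned to regions from the summed share of 25 neuronal and glial transcripts. Spots poor in neural transcripts formed the tumor side, spots rich in them the neural side, and the spots up to 3 grid steps from the border were called inner edge on the tumor side and outer edge on the neural side. A grid step is the distance between the centres of adjacent spots. In sections 1 and 2 this gave 608 and 580 tumor spots, 160 and 214 inner edge spots, 173 and 221 outer edge spots, and 2370 and 2852 neural spots. The median tumor spot held 57053.5 and 43160 UMIs, against 7586.5 and 9849 in the median neural spot.

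The marker genes of the tumors themselves differed between the sections. The tumor of section 1 had 41.1 CPM (counts as a share of all UMIs of the region, on the usual CPM scale) of an epithelial list of 7 measured genes and 55233 of a fibroblast list of 6 genes, whereas the tumor of section 2 had 10455 and 419. The section 1 tumor therefore carried almost none of the epithelial transcripts that its label would lead one to look for. Of 4 cerebellar cortex genes that the regions were not built from, Pcp2 of Purkinje cells was at 175 and 309 CPM in neural tissue of sections 1 and 2 and at 5.76 and 2.88 in the tumor. Cbln3, made by granule cells, was at 71.0 and 171 in neural tissue and at 5.25 and 5.08 in the tumor.

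**Figure D1:**
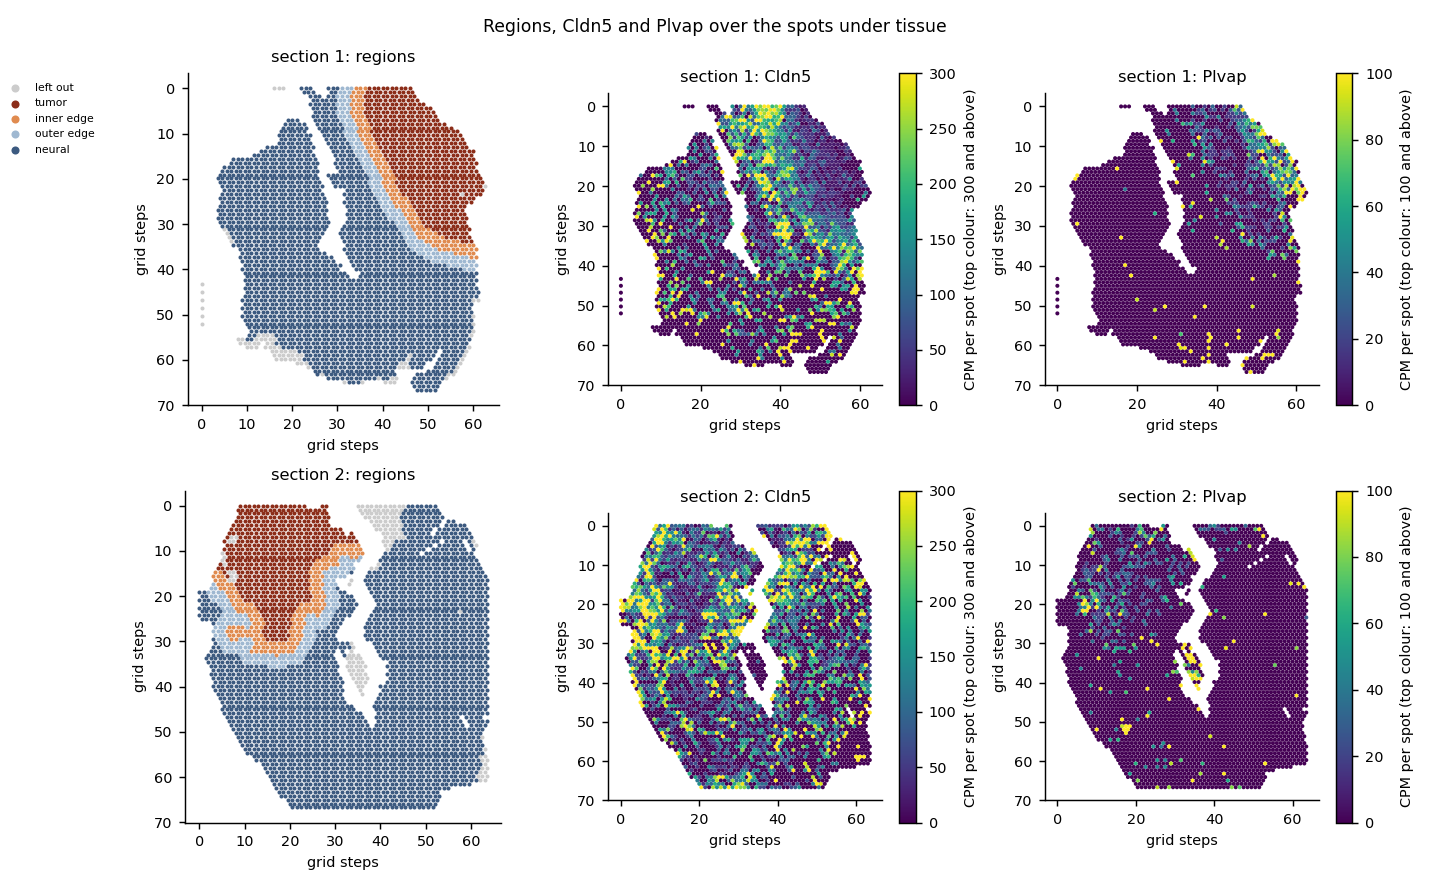
Spots of section 1 (top) and section 2 (bottom) on the capture grid, in grid steps, coloured by region (left), by Cldn5 (middle) and by Plvap (right) in plain CPM of the spot, with the top colour used for the highest values. Cldn5 forms a band along the border of the section 1 tumor, and Plvap is highest in the part of that tumor farthest from the border, at the margin of the tissue.

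The barrier genes were lower in the tumor than in neural tissue in both sections. Mfsd2a, which carries lysophospholipids with long-chain fatty acids into the brain and restrains vesicle transport in brain endothelium, lies on chr4:122946850-122961194 of GRCm38. Slco1c1, a thyroid hormone transporter of brain endothelium and of the choroid plexus, lies on chr6:141524354-141570177. Abcb1a, 1 of the mouse genes for the drug efflux pump P-glycoprotein, lies on chr5:8567091-8748575. The windows upstream of their annotated starts are shown because these 3 genes are read together here and because brain endothelial identity is known to depend on Wnt and beta-catenin signalling, whose TCF/LEF factors bind the core CTTTGA, while ETS factors, used by endothelial genes in general, bind around AGGAAG. Capitals mark each match of either core on either strand in these windows, from the RefSeq annotation of GRCm38.p6, bases inside the annotated gene left off.
Mfsd2a, chr4:122961195-122961438, minus strand: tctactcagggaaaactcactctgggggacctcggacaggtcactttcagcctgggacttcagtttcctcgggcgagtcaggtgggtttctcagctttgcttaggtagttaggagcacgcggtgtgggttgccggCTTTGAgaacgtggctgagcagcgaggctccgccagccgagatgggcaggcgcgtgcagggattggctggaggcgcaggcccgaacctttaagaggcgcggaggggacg
Abcb1a, chr5:8566841-8567090, plus strand: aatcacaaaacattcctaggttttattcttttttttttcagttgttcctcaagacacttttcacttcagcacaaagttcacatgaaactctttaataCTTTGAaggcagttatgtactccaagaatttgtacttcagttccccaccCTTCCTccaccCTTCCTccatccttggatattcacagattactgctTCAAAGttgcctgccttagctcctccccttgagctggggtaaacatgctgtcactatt
Slco1c1, chr6:141524104-141524353, plus strand: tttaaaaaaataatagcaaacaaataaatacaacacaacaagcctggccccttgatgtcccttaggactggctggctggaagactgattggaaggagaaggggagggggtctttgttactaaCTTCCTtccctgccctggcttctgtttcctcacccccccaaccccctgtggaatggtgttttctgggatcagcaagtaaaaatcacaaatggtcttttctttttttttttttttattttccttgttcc

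The Mfsd2a window holds 1 match of CTTTGA and none of AGGAAG, the Abcb1a window 2 of each, and the Slco1c1 window 1 match of AGGAAG and none of CTTTGA. Only these letters were searched for, so other forms of a TCF/LEF or ETS site are not counted. Of the 250 bases upstream of 32851 annotated starts, 13.8% hold CTTTGA and 29.5% hold AGGAAG on either strand, so single matches of this kind are common. A match is a stretch of letters and not a measured binding site.

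Levels by region are given as CPM scaled by TMM factors, which correct the plain CPM for differences in composition between libraries. In section 1 Mfsd2a was at 3.16 CPM in the tumor, 6.76 in the inner edge, 10.6 in the outer edge and 50.8 in neural tissue. Its levels in section 2 were 6.001, 7.55, 13.2 and 22.5 CPM in the same order. Both sections thus rose step by step from the tumor to neural tissue, and neural tissue of section 1 had more than that of section 2. Slco1c1 was at 5.47, 8.42, 13.3 and 52.1 CPM in section 1 and fell further in section 2, where it was at 1.14, 2.22, 10.6 and 41.5 CPM. Only 25 UMIs of Slco1c1 were counted in the whole section 2 tumor. For Abcb1a the step was shallower, with 19.5, 26.3, 19.7 and 33.9 CPM in section 1 and 10.4, 18.5, 24.1 and 38.6 CPM in section 2. On this scale all 3 genes were lower in the tumor than in neural tissue of the same section.

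Slco1a4 (chr6:141805438-141856284), a transporter of organic anions and some drugs at the blood-brain barrier, was likewise lower in the tumor. It was at 7.43 CPM in the tumor, 6.92 in the inner edge, 11.1 in the outer edge and 72.7 in neural tissue of section 1. In section 2 the order ran from 1.18 over 3.85 and 18.3 to 71.8 CPM. Neural tissue was at nearly the same level in both sections, whereas the tumors differed, with 228 UMIs counted in the tumor of section 1 and 26 in that of section 2.

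**Figure D2:**
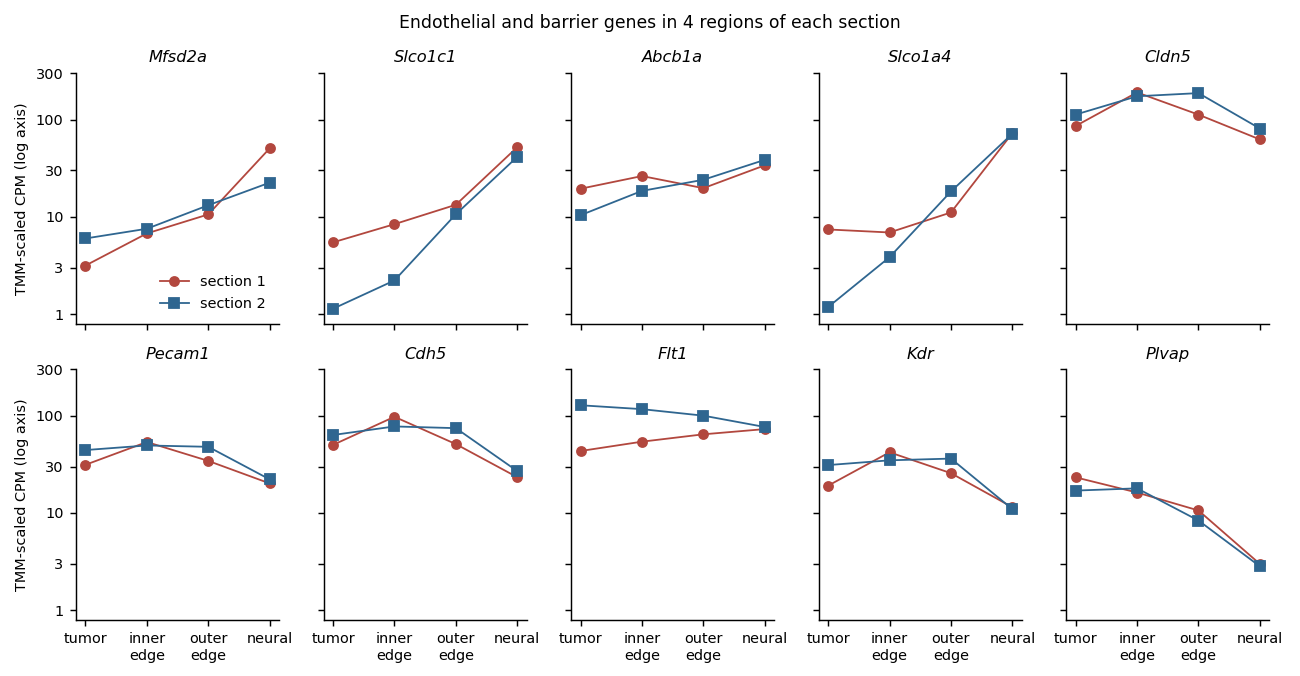
TMM-scaled CPM (log axis) of the 10 genes in tumor, inner edge, outer edge and neural tissue, with 1 point per section and region joined by lines within a section. Mfsd2a and Slco1c1 climb towards neural tissue and Slco1a4 is highest there, while Plvap, Cldn5, Pecam1, Cdh5 and Kdr are lowest in neural tissue in both sections.

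Tested over both sections with edgeR's quasi-likelihood test, 8 of the 10 genes changed between tumor and neural tissue, 4 of them higher and 4 lower in the tumor. Over all genes tested, 35.6% were called in this comparison, 17.5% higher and 18.1% lower. Without the section as a block, and with a lower threshold for neural spots, 5 of the 10 were called. The median log2 fold change of the 10 genes was 0.23, against -0.13 over all genes, since the members moved in opposite directions. Slco1a4 fell by 4.28 on the log2 scale (SE 0.82, adjusted p = 0.0118) and Slco1c1 fell by 4.13 (SE 0.61, adjusted p = 0.0049), folds of 19.4 and 17.5. Mfsd2a fell by 3.02 (SE 0.54, adjusted p = 0.00883), a fold of 8.08. Abcb1a fell by 1.32 (SE 0.35, adjusted p = 0.0308), a call that did not hold in a fit with regions only (adjusted p = 0.0549), with a higher threshold for neural spots (0.0538) and without the tumor spots beyond 12 steps from the border (0.0679).

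These values are shares of all UMIs, and a tumor spot held several times as many UMIs as a neural spot. Counted per spot, with no scaling, Mfsd2a was at 0.160 UMIs in tumor and 0.524 in neural spots of section 1, but at 0.228 and 0.265 in section 2. Abcb1a per spot was higher in the tumor of section 1, at 0.984 against 0.350 UMIs, and at 0.395 against 0.455 in section 2. Slco1a4 kept its direction per spot, with 0.375 against 0.749 UMIs in section 1 and 0.0448 against 0.846 in section 2, and so did Slco1c1, with 0.276 against 0.538 and 0.0431 against 0.489. Fewer endothelial cells in a region and less of a transcript per endothelial cell cannot be told apart in such sums. The genes were also set against each other, which does not settle this either, since other cells also make some of them.

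Of the 4 pan-endothelial genes, 3 rose in the tumor and Flt1 was not called. Their summed level was 134 plain CPM in the tumor and 153 in neural tissue of section 1, and 235 and 145 in section 2. Cdh5 (chr8:104101613-104144504), the cadherin of endothelial junctions, was at 50.1 CPM in the tumor, 97.6 in the inner edge, 51.1 in the outer edge and 23.3 in neural tissue of section 1, and at 63.4, 77.6, 74.5 and 27.0 in section 2. Pecam1 (chr11:106654213-106715281), an adhesion molecule of endothelium that platelets and some leukocytes also carry, was at 31.3, 53.7, 34.3 and 20.1 CPM in section 1 and at 44.4, 49.5, 47.9 and 22.1 in section 2. Kdr (chr5:75932827-75979072), the main signalling receptor for VEGF, was at 19.1, 42.1, 25.7 and 11.5 CPM in section 1 and at 31.1, 34.8, 36.3 and 10.9 in section 2. For each of these 3 genes neural tissue was the lowest region of both sections.

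Against neural tissue, Cdh5 rose by 1.17 (SE 0.24, adjusted p = 0.0139), Kdr by 1.13 (SE 0.30, adjusted p = 0.0311) and Pecam1 by 0.82 (SE 0.22, adjusted p = 0.0324) in the tumor. The call of Cdh5 was lost with a lower threshold for neural spots (0.83, adjusted p = 0.0797). The call of Kdr was lost under 3 of 15 alternative settings and that of Pecam1 under 4, with the log2 fold change staying between 0.75 and 1.46 for Kdr and between 0.51 and 1.09 for Pecam1. Beside Pecam1, the summed platelet list of 6 genes was at 53.0 plain CPM in the tumor and 36.8 in neural tissue of section 1 and at 95.1 and 31.6 in section 2, with none of its genes at 0 in any region. The leukocyte list of 6 genes was at 1613 and 413 in section 1 and at 363 and 458 in section 2, also with none at 0. Their part in the Pecam1 result was not tested.

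Flt1 (chr5:147561604-147726438), a VEGF receptor with weak signalling that also exists in a soluble form, went in opposite directions in the sections as a share of UMIs. It was at 43.4, 54.1, 64.4 and 72.9 CPM from tumor to neural tissue in section 1, and at 128, 117, 100.2 and 76.6 in section 2. The log2 fold change of tumor against neural tissue was -0.74 in section 1 and 0.74 in section 2, and -0.01 over both (SE 0.36, adjusted p = 0.986). Counted per spot, Flt1 was higher in the tumor of both sections, at 2.19 against 0.751 UMIs in section 1 and 4.86 against 0.903 in section 2. With 1 library per section and region, the difference between the sections could not be tested.

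Cldn5 (chr16:18776847-18778262), the main claudin of the tight junctions between brain endothelial cells, was higher in the edge than in neural tissue. So were Pecam1, Cdh5 and Kdr, whereas the transporters were lower there as a share of UMIs, with Abcb1a not called. In section 1 Cldn5 was at 86.1 CPM in the tumor, 190 in the inner edge, 113 in the outer edge and 62.5 in neural tissue. In section 2 it was at 113, 174, 187 and 81.0 CPM. Both edge regions were above neural tissue in both sections. The log2 fold change of tumor against neural tissue was 0.47 (SE 0.23, adjusted p = 0.166), while it was 0.77 and called with a higher threshold for neural spots (adjusted p = 0.012) and -0.013 with a lower one. That of the edge was 1.21 (SE 0.21, adjusted p = 0.0109).

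Plvap (chr8:71497753-71511806) showed the largest rise of the 10 genes. It was at 23.3 CPM in the tumor, 16.2 in the inner edge, 10.6 in the outer edge and 2.99 in neural tissue of section 1. In section 2 the levels were 17.0, 17.9, 8.37 and 2.83 CPM. The tumor and both edge regions were above neural tissue in both sections. Plvap rose by 2.78 on the log2 scale in the tumor (SE 0.28, adjusted p = 0.00138), a fold of 6.85, and the change remained called under all 15 alternative settings.

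**Figure D3:**
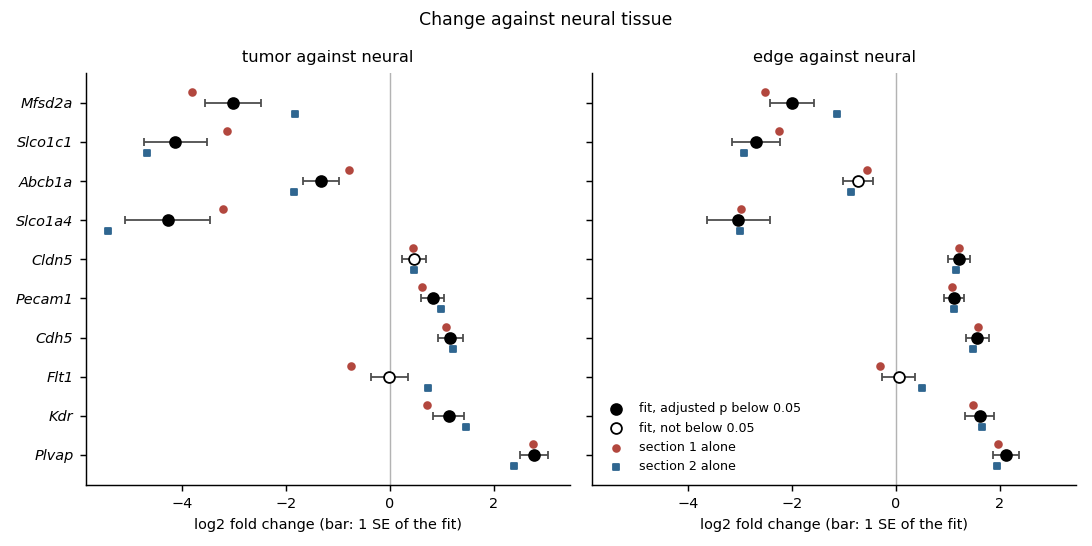
Log2 fold changes of the 10 genes for tumor against neural tissue (left) and edge against neural tissue (right), with the value of the fit over both sections and 1 SE in black (filled where the adjusted p was below 0.05) and the value within each section in colour, computed on log2(CPM + 0.5). The 4 transporters lie left of 0 in both panels, while Plvap, Cdh5, Kdr and Pecam1 lie right of it, and Flt1 lies on either side of 0 in the 2 sections.

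In the edge, taken as the mean of inner and outer edge, 8 of the 10 genes changed against neural tissue, 5 higher and 3 lower, beside 28.1% of all genes tested, 13.3% higher and 14.8% lower. Plvap rose by 2.13 (SE 0.25, adjusted p = 0.00344), Kdr by 1.62 (SE 0.28, adjusted p = 0.00962), Cdh5 by 1.56 (SE 0.22, adjusted p = 0.00562) and Pecam1 by 1.12 (SE 0.20, adjusted p = 0.011). Among the transporters, Slco1a4 fell by 3.04 (SE 0.61, adjusted p = 0.0171), Slco1c1 fell by 2.69 (SE 0.46, adjusted p = 0.0101) and Mfsd2a fell by 2.00 (SE 0.43, adjusted p = 0.0197). The value of Abcb1a was -0.72 (SE 0.29, adjusted p = 0.119) and that of Flt1 was 0.05 (SE 0.31, adjusted p = 0.92). In raw UMIs per spot Abcb1a was higher in the edge, by 1.03 and 0.14 on the log2 scale in sections 1 and 2.

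The tumor was also compared with the edge itself. With edgeR none of the 10 genes was called between tumor and edge, beside 2.78% of all genes (0.136% higher and 2.64% lower in the tumor), although 3 of the 10 had an unadjusted p below 0.05, beside 15.6% of all genes. These were Cldn5 at -0.74 (adjusted p = 0.182), Slco1c1 at -1.44 (adjusted p = 0.274) and Plvap at 0.65 (adjusted p = 0.253). Between outer and inner edge none was called either, beside 1.51% of all genes (1.4% higher and 0.105% lower in the outer edge), and 1 of the 10, Plvap at -0.86 (adjusted p = 0.187), had an unadjusted p below 0.05, beside 19.5% of all genes. DESeq2 called 1 of the 10 in each of these comparisons, which was Plvap (adjusted p = 0.0442 and 0.0354). With a higher threshold for neural spots edgeR also called Plvap between tumor and edge (1.26, adjusted p = 0.039).

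To compare the genes with each other, UMIs were counted per 100 UMIs of Pecam1, Cdh5, Flt1 and Kdr together in the same region, a ratio that does not depend on the depth of a spot or on the scaling. The make-up of this sum differed between regions. Flt1 gave 57.0 and 56.1 of each 100 in neural tissue of sections 1 and 2, but 30.1 and 48.0 in the tumor. Mfsd2a, Slco1c1 and Abcb1a together reached 107 per 100 pan-endothelial UMIs in neural tissue of section 1, but 24.9 in the outer edge, 16.8 in the inner edge and 19.5 in the tumor. In section 2 they reached 75.1 in neural tissue, 18.5 in the outer edge, 10.1 in the inner edge and 6.57 in the tumor. The tumor was thus 5.48-fold below neural tissue in section 1 and 11.4-fold below it in section 2. On the log2 scale the difference was -2.98 ± 0.75 (SD, n = 2 sections), and no test was run on these 2 differences.

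The ratio was also low in the outer edge. It was 4.30-fold and 4.06-fold below neural tissue there in sections 1 and 2, and 6.39-fold and 7.40-fold below it in the inner edge. Outer edge spots also held transcripts that were high in the tumor. The fibroblast list was at 13545 plain CPM there in section 1, against 705 in neural tissue, and the epithelial list at 3076 in section 2, against 324. The 25 neural genes were at 8959 and 9481, against 31984 and 27511 in neural tissue. The part of this mixture in the ratio was not tested. Slco1a4 alone fell from 56.9 and 52.5 UMIs per 100 in neural tissue to 5.16 and 0.443 in the tumor. Cldn5 summed over whole regions was at 48.9 and 59.3 per 100 in neural tissue and 59.8 and 42.2 in the tumor, higher in the tumor of section 1 and lower in that of section 2. Plvap rose from 2.34 and 2.07 per 100 in neural tissue to 16.2 and 6.37 in the tumor, and in the inner edge it was at 6.56 and 6.43.

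**Figure D4:**
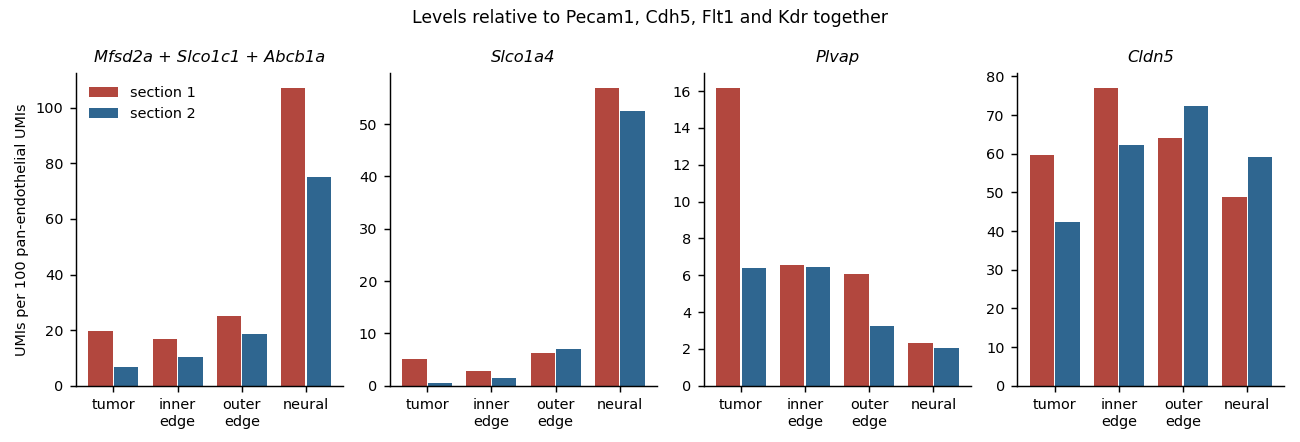
UMIs per 100 pan-endothelial UMIs (Pecam1, Cdh5, Flt1 and Kdr summed) in each region and section, as bars from 0 with a different axis in each panel and no error, since each bar is 1 summed library. The barrier genes and Slco1a4 are high in neural tissue only, Plvap is highest in the section 1 tumor, and Cldn5 summed over whole regions lies between 42.2 and 77.0.

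Distance from the border showed how these transcripts change along the tissue. The following levels are plain CPM, without TMM scaling. The summed barrier genes were at 52.0 in the first 3 steps of the neural side of section 1, at 123 in steps 4 to 6, at 151 in steps 7 to 9, at 135 in steps 10 to 12 and at 177 beyond 12 steps. In section 2 they were at 46.2, 98.7, 94.7, 110.7 and 111 in the same bins. In both sections the steepest step on the neural side lay between the first and second bin. Neural transcripts, which define the border, rise over the same spots by construction. Relative to pan-endothelial UMIs, the barrier genes went from 24.9 to 57.9, 103, 147 and 119 per 100 in section 1 and from 18.5 to 53.4, 54.5, 70.6 and 81.7 in section 2. The choroid plexus list of 8 genes, a tissue that makes Slco1c1, was at 53.5, 401, 2372, 3532 and 57.3 plain CPM in these bins of section 1 and at 126, 1250, 3325, 2252 and 230 in section 2. Its part in the profile of the barrier genes was not tested.

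As a share of UMIs, Cldn5 peaked at the border. It was at 176 plain CPM in the first 3 steps of the tumor side and 134 in the first 3 of the neural side of section 1, and at 157 and 181 in section 2. In steps 4 to 6 of the neural side it was at 159 and 150, and beyond 12 steps at 57.6 and 73.2. Counted per spot, Cldn5 in section 1 was highest 4 to 6 steps inside the tumor, at 9.10 UMIs against 7.92 in the first 3. In section 2 it was at 5.56 UMIs per spot beyond 12 steps inside the tumor and 5.49 in the first 3. The summed pan-endothelial genes were at 229 and 209 plain CPM beside the border of section 1, against 148 beyond 12 steps of neural tissue. In section 2 they were at 252 and 249, against 136. Inside the tumor the sections parted. In section 1 Cldn5 fell steadily inward, from 143 at 4 to 6 steps over 89.6 and 50.7 to 29.2 beyond 12 steps. In section 2 it was at 105, 81.5, 81.0 and 122 over the same bins.

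Plvap ran against Cldn5 in the tumor of section 1. It was at 10.2, 9.63 and 12.6 plain CPM at 4 to 6, 7 to 9 and 10 to 12 steps, and at 49.5 beyond 12 steps, where 219 spots held 465 of the 714 Plvap UMIs of that tumor. Per 100 pan-endothelial UMIs the same bins had 6.28, 7.53, 10.9 and 39.8 of Plvap and 88.5, 70.1, 43.9 and 23.4 of Cldn5. The tumor of section 2 had no such step, with Plvap at 16.5, 13.7, 18.0 and 12.6 plain CPM. As the map of regions shows, the farthest spots of section 1 lie along 1 margin of the tissue.

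Without the tumor spots beyond 12 steps, a setting chosen after seeing the data, Plvap in the tumor of section 1 was at 10.6 plain CPM, below its inner edge at 15.0 and above neural tissue at 3.58. In section 2 it was then at 15.9, beside 16.2 and 2.99. The log2 fold change of tumor against neural tissue was 2.34 in this setting (SE 0.33, adjusted p = 0.00423), and that of tumor against edge went from 0.65 to 0.22 (adjusted p = 0.715). Since these spots were left out for their Plvap, the drop follows from that choice.

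**Figure D5:**
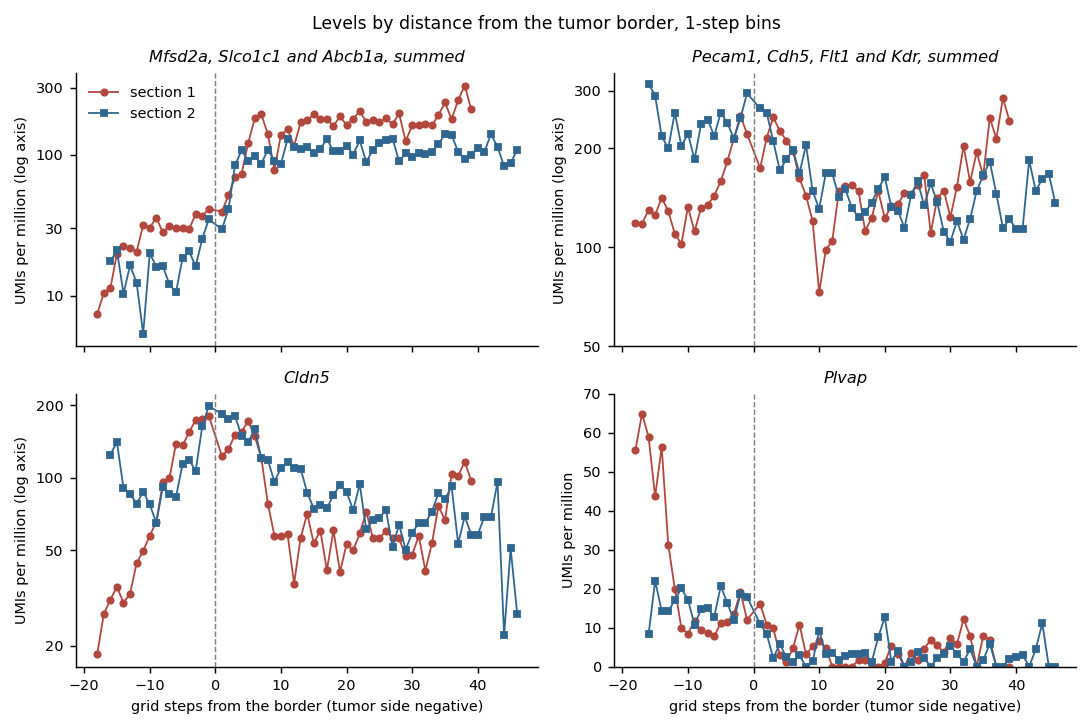
Plain CPM in bins of 1 grid step from the tumor border (dashed line; tumor side negative) for the summed barrier genes, the summed pan-endothelial genes, Cldn5 (log axes) and Plvap (linear axis from 0), with bins under 20 spots left out. The barrier genes climb within the first 6 steps of the neural side, Cldn5 peaks at the border in both sections, and Plvap climbs deep in the tumor of section 1 only.

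Across single spots of the tumor and inner edge, the genes whose levels followed Plvap most closely in both sections were Col4a1 (Pearson's r 0.32 in section 1 and 0.29 in section 2), Mgp (0.49 and 0.29), Col4a2 (0.27 and 0.27), Igfbp5 (0.30 and 0.24) and Bgn (0.33 and 0.23), over 768 and 794 spots. Cldn5 correlated with Plvap at -0.25 in section 1 and 0.25 in section 2. The pan-endothelial genes also had different r with Plvap in the 2 sections. Pecam1 was at 0.033 and 0.229, Cdh5 at 0.009 and 0.273, Flt1 at -0.091 and 0.122 and Kdr at -0.080 and 0.244. In section 1 Plvap thus followed none of these genes closely. Spots of a section share their library and their neighbours, so these values are descriptions. For Cldn5 over the 2370 and 2852 neural spots, where counts were sparse, r was low even for the closest genes. These were Tmsb4x (0.21 and 0.22), Lcn2 (0.23 and 0.21), Tagln2 (0.20 and 0.21), Hmox1 (0.20 and 0.23) and Anxa2 (0.21 and 0.20). The pan-endothelial genes had lower r with Cldn5. Cdh5 was at 0.086 and 0.145, Kdr at 0.099 and 0.070, Flt1 at 0.069 and 0.122 and Pecam1 at 0.035 and 0.095. Over these neural spots Cldn5 also fell with distance from the border. It went from 159 plain CPM at 4 to 6 steps to 57.6 beyond 12 in section 1, and from 150 to 73.2 in section 2. The part of this gradient in the r values was not tested.

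Within neural tissue beyond the outer edge, the transporters were present throughout. Spots rich in cerebellar cortex genes (1555 and 1763 in sections 1 and 2) and spots rich in myelin genes without them (811 and 1014) were compared in plain CPM. Slco1a4 was at 81.1 and 98.6 in cortex and myelin spots of section 1 and at 66.6 and 100.4 in those of section 2. Slco1c1 was at 60.7 and 66.0 in section 1 and at 38.3 and 55.4 in section 2. Cldn5 was likewise lower in the cortex spots of both sections, at 67.0 against 89.9 and at 74.7 against 105.5. Mfsd2a was lower in both tissues of section 2, at 58.6 and 65.2 in section 1 and at 18.2 and 36.5 in section 2. Plvap was low in both tissues, from 1.79 to 4.26. These are sums per section, and no test was run on them.

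Choroid plexus, whose vessels are fenestrated and whose epithelium makes Slco1c1, was part of both sections. Its spots, found from genes other than Ttr, numbered 36 in section 1 and 86 in section 2 outside the tumor side and had 20679 and 94207 plain CPM of Ttr, the main secretory transcript of that epithelium. Slco1c1 was at 104 and 204 plain CPM in them, against 61.8 and 42.5 in neural spots without choroid plexus. Plvap was at 14.5 and 32.7, against 3.39 and 2.96, with only 5 UMIs behind the value of section 1. Of the 86 spots of section 2, 49 belonged to neither side and entered no comparison. With the choroid plexus spots removed from all regions, each of the 8 calls for tumor against neural tissue remained.

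Other genes of the vessel wall were read from lists chosen with earlier results of these data known, each with its count of calls for tumor against neural tissue, where 17.5% of all genes were called higher and 18.1% lower. Of 19 further pan-endothelial genes, 4 rose and none fell, with a median of 0.35, a share near that over all genes. In the edge 9 of the 19 rose against neural tissue, beside 13.3% of all genes. Cd93, a receptor of activated endothelium, rose by 2.103 (SE 0.31, adjusted p = 0.00442), Ecscr by 1.86 (SE 0.37, adjusted p = 0.0122) and Mmrn2, a matrix ligand of Cd93, by 1.33 (SE 0.27, adjusted p = 0.0138). Of 13 further transporter and junction genes, none rose and 2 fell, a share no higher than that over all genes, with a median of -0.29. Slc22a8, an organic anion transporter of brain endothelium and choroid plexus, fell by 3.45 (SE 0.42, adjusted p = 0.00246) and Slc19a3, a thiamine transporter, fell by 1.58 (SE 0.25, adjusted p = 0.00585). The other 11, among them the glucose transporter Slc2a1 and the junction genes Ocln and Tjp1, were not called, and these lists hold genes that other cells of the tissue express too.

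Genes of the Wnt signal that maintains the barrier moved both ways. Of 14, 3 rose and 4 fell in the tumor, near the shares over all genes, with a median of -0.22. The summed level of the list was higher in the tumor, at 630 plain CPM against 543 in neural tissue of section 1 and at 1171 against 617 in section 2. The ligand Wnt7b rose by 1.48 (SE 0.34, adjusted p = 0.0199), the Wnt target Axin2 by 1.1005 (SE 0.20, adjusted p = 0.00986) and Ctnnb1, the gene of beta-catenin, by 0.91 (SE 0.26, adjusted p = 0.0428). These 3 lie outside the rule for named genes and were chosen after their values were seen. The ligands Ndp and Wnt7a, made by glia and neurons, fell by 2.71 (SE 0.43, adjusted p = 0.00568) and 2.43 (SE 0.45, adjusted p = 0.00996), and Tnfrsf19, a Wnt target in brain endothelium that astrocytes also express, fell by 2.94 (SE 0.35, adjusted p = 0.00228). Of 6 genes of astrocytes and their endfeet, 5 fell and none rose, with a median of -2.43. Their summed level was 536 plain CPM in the tumor and 3087 in neural tissue of section 1, but 3266 and 2570 in section 2, with none at 0 in any region. The gene not called was Gja1. In section 2 Slc1a2, Kcnj10 and Gjb6 were at 38.6, 20.6 and 15.0 TMM-scaled CPM in the tumor. In neural tissue of that section they were at 753, 379 and 163. The high sum in the section 2 tumor therefore did not come from these 3 genes. The part of glial cells in the changes of Ndp, Wnt7a and Tnfrsf19 was not tested. Of 10 pericyte genes 1 rose and 1 fell, beside 17.5% and 18.1% of all genes. Anpep, which other cells also carry, rose by 3.74 (SE 0.42, adjusted p = 0.00193), and Atp13a5, a marker of brain pericytes, fell by 2.54 (SE 0.41, adjusted p = 0.00603).

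Over all genes, 17.5% were called higher and 18.1% lower in the tumor, which is the share beside each count that follows. Of 14 genes of permeable or growing vessels, 4 rose and 1 fell, with a median of 1.25. Col4a1 and Col4a2, the chains of basement membrane collagen, each rose by 2.59 (SE 0.28 and 0.27, adjusted p = 0.00178 and 0.00166). Ackr1, a chemokine receptor of venules that cerebellar Purkinje cells also express, fell by 3.07 (SE 0.50, adjusted p = 0.00683). Of 5 genes of caveolae, the vesicles in which Plvap forms diaphragms, 3 rose and none fell, with a median of 1.61. They were Cavin1 at 2.33 (SE 0.16, adjusted p = 0.000526), Cav2 at 1.61 (SE 0.19, adjusted p = 0.00234) and Cavin2 at 1.60 (SE 0.33, adjusted p = 0.0143). Among 8 ligands and co-receptors of VEGF and angiopoietin signalling, 4 rose and 1 fell, with Vegfc at 2.55 (SE 0.31, adjusted p = 0.00257) and Nrp1 at 1.96 (SE 0.25, adjusted p = 0.00272). Nrp2 was at 2.16 (SE 0.54, adjusted p = 0.0285), with 3.14 in section 1 and 1.19 in section 2, and lost its call without the block (0.0528) and with the lower threshold (0.058). Called genes of these lists outside the rule for named genes, given after their values were seen, were Eng at 0.84, Aplnr at 2.24, Icam1 at 1.88, Angpt1 at 1.76 and Vegfb at -1.78. Collagens and caveolae belong to fibroblasts and tumor cells as well, and the fibroblast list stood at 55233 plain CPM in the tumor and 705 in neural tissue of section 1 and at 419 and 151 in section 2. Its part in these changes was not tested.

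Scaling bore on how many genes were called in each direction but on few of the 10. With the library size as the only scaling, the median of all genes shifted by -0.32 for tumor against neural tissue, and 29.7% of the called genes were higher in the tumor in place of 49.2%. For edge against neural tissue the shift was -0.18 and the share 35.0% in place of 47.2%. In that scaling Pecam1 and Kdr were at 0.51 (adjusted p = 0.0926) and 0.82 (adjusted p = 0.0653) in the tumor, still higher but no longer called, and Abcb1a became called in the edge at -0.91 (adjusted p = 0.043).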

How the data were processed

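The deposited files were Space Ranger 2.1.1 outputs against mm10 (per the labels' processing notes): for each section, raw UMI counts per gene and spot that the authors did not normalize, and spot positions. Per the methods, Space Ranger aligned the reads, found the tissue on the slide image and counted UMIs. The authors then chose areas in Loupe Browser, filtered spots at the same minimum as used here, and normalized and clustered them in Seurat and BayesSpace, steps that come after the deposited counts. Their areas held fewer spots in each section than were under tissue here, where no such areas were cut out. It is not given in the sources used here whether probes of close relatives such as Abcb1a and Abcb1b share reads.

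Spots with at least 500 UMIs and 10 genes were kept, leaving out 91 and 18 spots. Each got the log2 share of 25 neural genes over itself and its adjacent spots, split by Otsu's threshold in each section. The largest connected neural-poor area was the tumor side and neural-rich areas of at least 20 spots the neural side. A further 4 and 132 spots belonged to neither. These regions were rebuilt from the counts and were not drawn by a pathologist. The sums over each region of each section gave 8 libraries, the smallest with 3404364 and the largest with 32980441 UMIs. edgeR 4.0.16 in R 4.3.3 was run with TMM factors, filterByExpr and its quasi-likelihood test, with section (the mouse) as a block, 3 residual degrees of freedom and Benjamini-Hochberg adjustment over 19128 genes, and a gene was called at an adjusted p below 0.05. The labels name the sections as biological replicates, and regions of 1 section come from the same mouse, which is where the pairing comes from. With this block edgeR's common dispersion was 0.0844, as against 0.181 for regions only. With 1 library per section and region, a difference between sections could not be tested. The edge is the mean of inner and outer edge. The script was tested on simulated data.

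The members and lists were chosen with earlier results of these data known. Named genes are the 10 members, up to 3 genes per list with the largest called change in the same direction in both sections, and the 5 genes most like Plvap and the 5 most like Cldn5. Likeness was compared on log2(CPM + 100) per spot among genes with at least 0.1 UMIs per spot. The sections share 3096 barcodes, which are position codes of the array. Alternatives were DESeq2 1.42.0, RLE factors, library size only, no filter, no block, other edges, thresholds, spot filters and neural references, each section alone, and, chosen after seeing the data, the tumor without its spots beyond 12 steps. Intervals are exact Poisson intervals at 95% and cover counting error only. Promoters came from RefSeq on GRCm38.p6, matched by symbol for 7 of the 10 genes. Python 3.11.15, scipy 1.17.1 and matplotlib 3.10.9 were used.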

Additional observations from a re-analysis of the deposited data

Results flagged for a closer look

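In section 2, spots poor in neural transcripts that belonged to neither side entered no comparison, and some endothelial genes exceeded the neural level of both sections there. In 83 such spots without choroid plexus genes, which held 1506 plain CPM of Epcam and 1273 of Krt8, both epithelial genes, Pecam1 was at 31.9 plain CPM (95% exact Poisson interval 25.5 to 39.4), against 24.1 and 23.4 in neural tissue of sections 1 and 2. Cdh5 was at 38.5 (31.5 to 46.7), against 28.0 and 28.5. Kdr was at 24.1 (18.6 to 30.7), against 13.7 and 11.6. Plvap was at 6.30 (3.67 to 10.1), against 3.58 and 2.99. The other members did not exceed it by this measure. Flt1 was at 73.7 (63.8 to 84.7), below the 87.4 and 81.1 of neural tissue. Cldn5 was at 96.0 (84.6 to 108), against 74.9 and 85.7, so its interval reached the value of section 2. Mfsd2a was at 3.33 in these spots, Abcb1a at 8.89, and Slco1a4 and Slco1c1 were at 1.85 each.

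In the 49 spots of that kind with choroid plexus genes, Slco1c1 was at 229 plain CPM (198 to 263), against 62.5 and 43.9 in neural tissue. Plvap was at 46.0 there (32.9 to 62.7). These spots are among the 86 choroid plexus spots of section 2 given above, so this is not a separate observation. They held 199 of the 261 Slco1c1 UMIs and 40 of the 42 Plvap UMIs of those 86 spots. All these intervals cover counting error within 1 section.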

How the results depend on the processing

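Mfsd2a, Slco1a4, Slco1c1 and Plvap remained called between tumor and neural tissue under all 15 alternative settings with a test. The log2 ratio of barrier to pan-endothelial transcripts was also compared, as tumor minus neural tissue. This difference stayed between -3.12 and -2.92, or between -3.51 and -2.45 with each section alone. Without the replicate block (the section), 3980 genes and 5 of the 10 were called for tumor against neural tissue, 3206 genes for edge against neural tissue, 350 for tumor against edge and 0 for outer against inner edge. With a threshold 1 log2 unit lower, 5 of the 10 were called for tumor against neural tissue. In the other settings the first comparison had 6417 to 8089 genes and 6 to 8 of the 10, and edge against neural tissue 4156 to 6812 genes and 8 to 9 of the 10. The remaining comparisons depended more on the settings. Tumor against edge had 1718 genes and 1 of the 10 with DESeq2, 1777 and 1 with the higher threshold, 0 genes with the lower one, 248 with the score of single spots and 260 without the tumor spots beyond 12 steps. Outer against inner edge had 1959 genes and 1 of the 10 with DESeq2, 716 with library size only, 1367 with an edge of 5 steps, 184 with neural tissue beyond 10 steps, and 0 with an edge of 2 steps, the score of single spots, either other threshold, or without the deep tumor spots. The cause was not tested.

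Under the settings with a test, values that turned in sign were mostly near 0. Flt1 for tumor against neural tissue was at 0.12 with DESeq2 and with RLE factors, 0.20 without the block, 0.0025 with an edge of 5 steps, 0.092 with the higher threshold, 0.14 against cerebellar cortex and 0.046 without deep tumor spots. For tumor against edge it was at 0.032 without the block and 0.093 with the higher threshold, and for edge against neural tissue at -0.13 with library size only, -0.00091 with the lower and -0.00050 with the higher threshold. For outer against inner edge Flt1 was at -0.044 with DESeq2, -0.045 with RLE factors, -0.040 with single spots, -0.055 without the block, -0.13 with an edge of 5 steps, -0.023 with the lower and -0.15 with the higher threshold. Abcb1a there was at 0.22 with library size only, 0.27 with an edge of 5 steps, 0.17 and 0.59 with the lower and higher threshold, 0.027 without choroid plexus spots and 0.016 without deep tumor spots. With the lower threshold Cldn5 was at -0.013 for tumor against neural tissue, and for outer against inner edge Cldn5 was at 0.13, Pecam1 at 0.079, Cdh5 at 0.073 and Kdr at 0.084. Raw UMIs per spot turned more values. For tumor against neural tissue, Flt1 was then at 1.99, Abcb1a at 0.64, Slc19a3 at 0.40 and the platelet gene Gp1bb at 0.19. For edge against neural tissue Abcb1a was at 0.59. For tumor against edge Flt1 was at 0.58, Pecam1 at 0.39, Cdh5 at 0.31, Kdr at 0.19 and Abcb1a at 0.058. For outer against inner edge Flt1 was at -0.81 and Mfsd2a at -0.098. Turns within a single section alone are not listed. Counts were lowest for Slco1c1 in section 2, with 25 UMIs in the tumor and 15 in the inner edge.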
